A study of Rattus norvegicus with 6 samples.

Results

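The BCL2 family, the genes that set whether a mitochondrion holds or releases its death signals, was followed in cultured rat heart cells with and without C3a. The genes were taken by name as the pro-survival members Bcl2, Bcl2l1, Bcl2l2 and Mcl1, the effectors Bax and Bak1, the BH3-only members Bad, Bid and Bcl2l11, and the atypical member Bnip3, which makes 10 of the 16581 genes named on the array. They were found on 19 probes through the accession that the array gives each probe, and for each gene 1 probe was selected on its mean signal, the brightest over the 6 arrays together, so levels are given as a description. The cells were neonatal rat ventricular cardiomyocytes (NRVCs), primary cells pooled from the ventricles of 8 to 10 Sprague-Dawley rats of 1 to 2 days of age. There were 3 control cultures in medium alone and 3 cultures that received recombinant C3a protein, a fragment of complement C3, at 0.5 µg/ml for 12 h. Both groups shared the collagen-coated glass and the serum-free medium that the sample records name, and the methods of the study name 1% fetal bovine serum for a starvation of 1 h ahead of the treatment. The records do not say whether the cultures of a group came from separate preparations, so the p-values measure the spread between these cultures, which may be technical.

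Proteins of this family meet at the outer membrane of the mitochondrion. Bax and Bak1 form the pores through which cytochrome c leaves, the pro-survival members bind them and hold them back, and BH3-only members respond to stress by occupying the survival proteins or by activating the effectors directly. In heart muscle cells, which hardly divide, this pathway is known for the loss of cells during ischaemia and pressure overload, and Bnip3 is known as a hypoxia-induced member that also marks mitochondria for removal by autophagy.

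The sequence before the annotated starts is shown for Bcl2l1 and Bnip3, because the probes of these genes gave unequal changes. The probes of Bad gave unequal changes too, and its window is not printed. In RefSeq on the assembly GRCr8, Bcl2l1 has 4 annotated start windows on the minus strand of chromosome 3, of which the outermost, chr3:161764776-161765025, and one nearer to the coding part, chr3:161763251-161763500, are printed. The Bnip3 window is chr1:203154963-203155212 on the minus strand. Each run is the 250 bases before the start, 5′ to 3′. Capitals mark matches to TTCNNNGAA, the spaced palindrome that STAT factors bind, in both Bcl2l1 windows, and matches to ACGTG or GCGTG on either strand, the core of the hypoxia response element, in the Bnip3 window.
Bcl2l1 outermost: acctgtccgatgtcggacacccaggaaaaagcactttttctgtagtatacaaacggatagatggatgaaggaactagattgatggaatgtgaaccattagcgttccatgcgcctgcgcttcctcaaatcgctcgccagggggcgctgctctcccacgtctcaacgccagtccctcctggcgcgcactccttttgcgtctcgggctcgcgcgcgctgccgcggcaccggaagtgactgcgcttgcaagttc
Bcl2l1 nearer: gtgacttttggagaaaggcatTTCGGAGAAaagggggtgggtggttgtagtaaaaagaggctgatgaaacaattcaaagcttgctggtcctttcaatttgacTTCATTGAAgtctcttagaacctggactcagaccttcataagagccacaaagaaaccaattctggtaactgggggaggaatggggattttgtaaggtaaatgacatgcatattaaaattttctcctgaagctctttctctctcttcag
Bnip3: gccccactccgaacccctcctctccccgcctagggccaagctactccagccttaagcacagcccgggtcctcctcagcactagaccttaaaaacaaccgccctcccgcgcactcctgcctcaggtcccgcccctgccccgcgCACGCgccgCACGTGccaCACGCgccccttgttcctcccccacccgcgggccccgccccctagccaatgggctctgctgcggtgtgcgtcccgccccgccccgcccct

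The outermost Bcl2l1 window holds no match to TTCNNNGAA, and the nearer one holds 2, TTCGGAGAA at 229 and TTCATTGAA at 148 bases before the start. Another Bcl2l1 window overlaps the nearer one and holds the same 2 matches, and the last Bcl2l1 window holds none. The Bad window holds 1 match, TTCAGTGAA at 151 bases before its start. Of all 33469 such windows in the rat table, 7.67% hold TTCNNNGAA and 36.7% hold one of the hypoxia cores. The Bnip3 window holds 4 core matches, CACGC at 108 and at 90 bases before the start and CACGT at 99 overlapping ACGTG at 98. Among the other members, the Bcl2l11 window also holds 4 hypoxia core matches and the Bcl2 window holds 1. The outermost Bcl2l1 window holds CACGT at 97, left in lower case here, and a Bcl2l1 window not printed holds GCGTG at 51. The windows of Bcl2l2, Mcl1, Bak1, Bad and Bid hold no hypoxia core. Bax is not among the windows described here. These matches describe the letters only, and the tables used here do not tie a window to a probe.

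Each culture was measured on its own 1-colour array of 45598 probes. The slide was the same for all 6 arrays and was scanned once, and since controls filled one of its columns and C3a arrays the other, column and treatment cannot be told apart. Control replicate 1 stood apart, with a local background of 47 intensity units against 23 to 24 on the other arrays, and with 38.6% of its probes well above background against 53.7% to 57.3%. Signals are given as log2 of the background-corrected intensity relative to the same array's 75th percentile, which lay between 207 and 367 intensity units. Cardiomyocyte markers were above background on every array for 8 of 8 genes, with a summed relative signal of 3540 to 4553 in the controls and 4405 to 4970 with C3a, and markers of other heart cells were present too, as given at the end.

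After 12 h with C3a, no member of the family passed the test against control after adjustment over the whole array. Bcl2l1, which encodes the survival protein Bcl-xL, was the only one of the 9 tested members below an unadjusted p of 0.05. It stood at 1.40-fold of its control level. Its probe was the brightest of the gene only with the C3a arrays counted, so the choice drew on the values then tested. The other 8 tested members differed by at most 0.20 on the log2 scale. All 4 pro-survival members lay above 0, as did 3 of the 5 tested pro-death members, and 60.5% of all tested genes did so as well. The median change over all tested probes was 0.048, and it was -0.10 with no filter on dim probes.

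Detection was broad, with 8 of the 10 members well above background on all 6 arrays, Bcl2l1 on 5 and Bid on 1. In limma, 0 of the 9 tested members passed an adjusted p of 0.05, with adjusted p-values from 0.746 to 0.968, and 0.0% of the 23438 probes did so. At an unadjusted p of 0.05, 1 member was higher and 0 were lower, beside 2.89% and 2.46% of the 10390 tested genes. The C3a arrays all lay above the controls for 1 member and all below for 0 members, beside 8.08% and 4.88% of the tested genes. The median size of the change, whatever its sign, was 0.11 over the members and 0.11 over all tested genes. The 95% confidence interval of a member's change reached 0.27 to either side at the median and 0.35 at the widest, for Bak1.

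**Figure D1:**
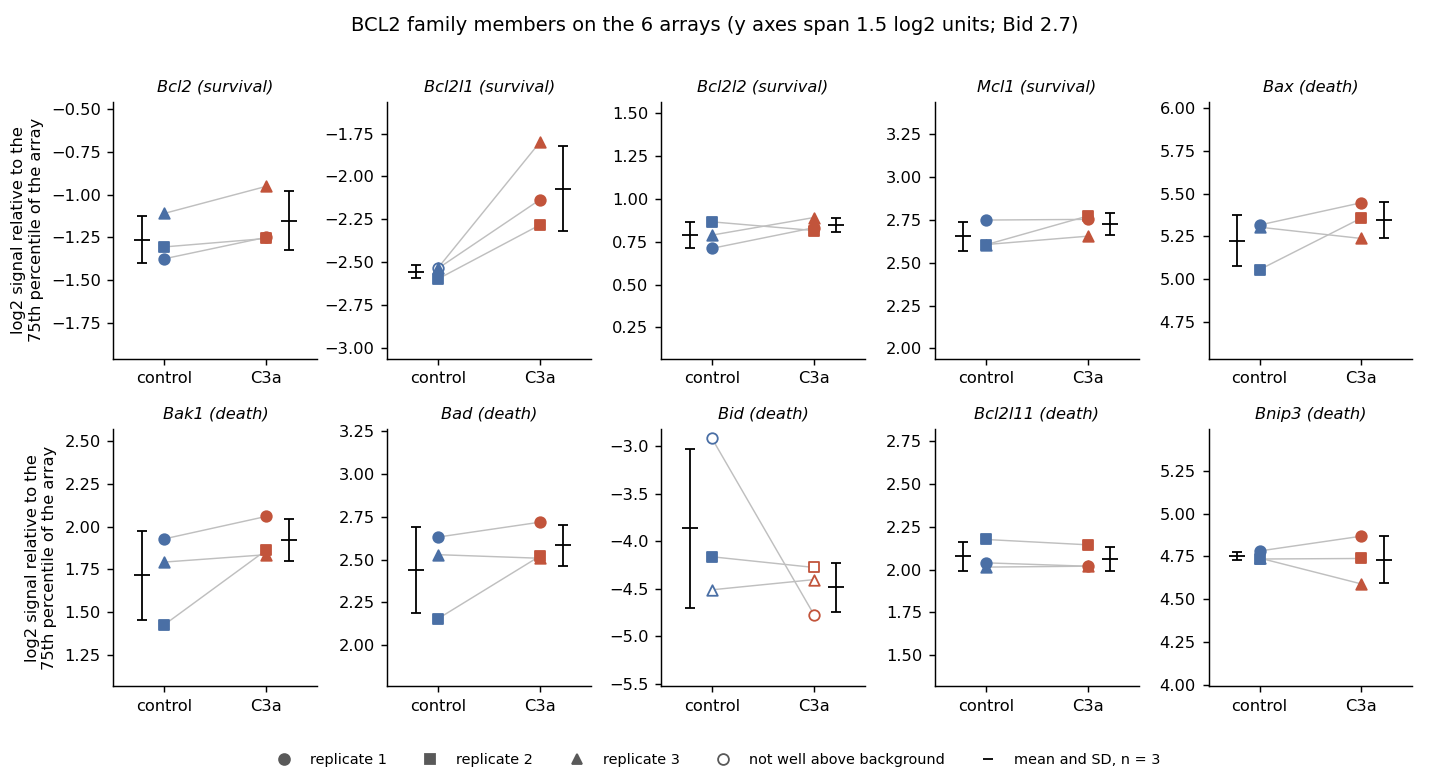
Log2 signal relative to each array's 75th percentile for the brightest probe of each of the 10 members, with each array as a symbol by replicate number, lines joining equal numbers, open symbols for arrays where the probe was not well above background, and bars for the mean and SD (n = 3). Only for Bcl2l1 do the C3a arrays all lie above the controls, and Bid is mostly below background.

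Bcl2l1 gave relative log2 signals of -2.54, -2.60 and -2.53 on the control arrays and -2.13, -2.28 and -1.80 on the C3a arrays. The 3 C3a arrays all lay above the 3 controls, with C3a replicate 3 the highest, and the controls lay close together (SD 0.037) while the C3a arrays spread more (SD 0.25). The difference was 0.48 (SE 0.14, 95% confidence interval 0.16 to 0.81, limma unadjusted p = 0.00948 and adjusted p = 0.746), and the exact permutation p was 0.1, the smallest that 3 against 3 arrays can give. By unadjusted p it ranked 238 among the 23438 probes.

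The Bcl2l1 probe was dim. Before scaling its intensities were 47.0, 60.7 and 46.5 on the controls and 52.5, 59.2 and 59.6 on the C3a arrays, so the unscaled groups overlapped and the difference appeared relative to the 75th percentile, which was lower on most C3a arrays. It exceeded background on 2 of 3 controls, not on control replicate 1, and on 3 of 3 C3a arrays. The probe therefore entered the test through the C3a group alone, although a filter that asked for 2 of 3 arrays kept it through either group, with an unadjusted p of 0.0113 in limma. Leaving control replicate 1 out gave a difference of 0.49. Its value lay between those of the other controls and under the lowest relative log2 signal well above background on that array, -2.27. The part of its raised background in this result was not tested.

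The other Bcl2l1 probes did not give the same change. On the controls alone A_44_P1085814 was brighter than the chosen probe, with means of -2.44 and -2.56. With C3a the means were -2.40 and -2.07. The choice of the brightest probe thus favoured a probe that was higher with C3a, and the unadjusted call is a description. Probe A_64_P054730 read -2.75, -2.49 and -2.53 on the controls and -2.54, -2.33 and -2.02 with C3a, a difference of 0.29 with a 95% confidence interval of -0.070 to 0.66. Probe A_44_P1085814 read -2.37, -2.58 and -2.39 on the controls and -2.68, -2.45 and -2.07 with C3a, a difference of 0.046 with an interval of -0.35 to 0.44. In both of these the groups overlapped, and the last probe of the gene, A_44_P1104090, was well above background on 0 of 6 arrays. A_44_P1085814 was well above background on 2 of 3 controls and 3 of 3 C3a arrays. On control replicate 1 neither it nor the brightest probe was well above background. Within each array, the brightest probe minus A_44_P1085814 was -0.17, -0.021 and -0.15 in the controls and 0.54, 0.16 and 0.27 with C3a. That within-array difference shifted by 0.44 without overlap (exact permutation p = 0.1, and 0.4 after Benjamini-Hochberg adjustment over 8 such probe pairs, where no pair could pass). Averaged over its kept probes, Bcl2l1 differed by 0.27 with an unadjusted p of 0.0925 in limma.

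**Figure D2:**
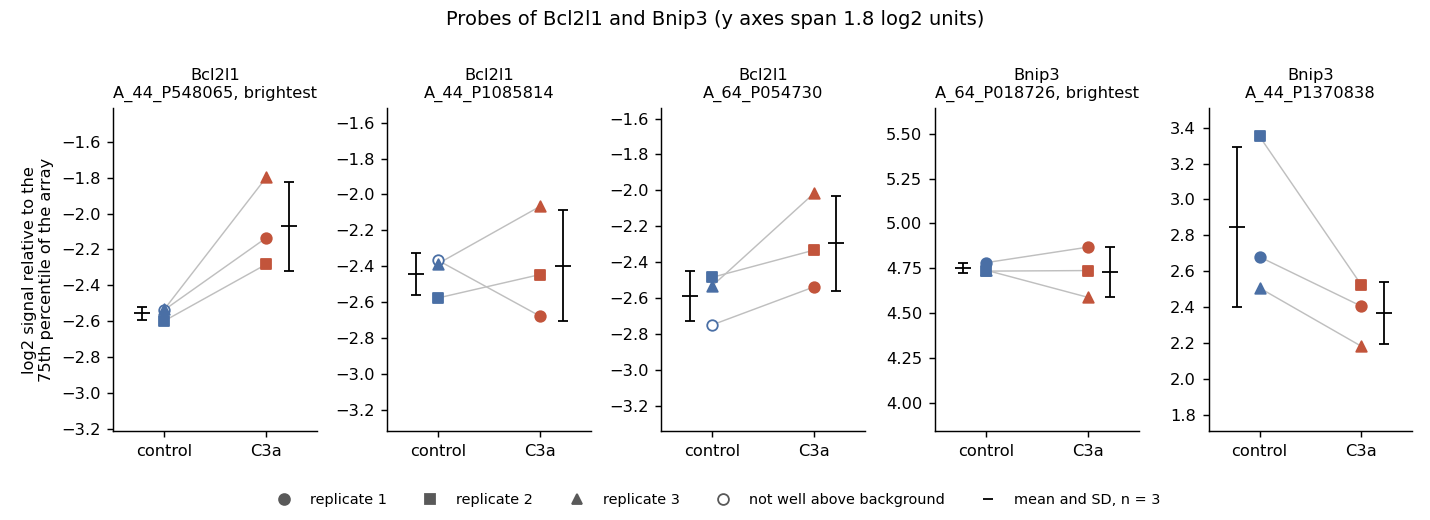
Log2 signal relative to each array's 75th percentile for the 3 tested Bcl2l1 probes and both Bnip3 probes on each array, with lines joining equal replicate numbers and bars for the mean and SD (n = 3). The brightest Bcl2l1 probe separates the groups while its other probes overlap, and the dimmer Bnip3 probe is lower with C3a in every numbered pair while the brighter one is level.

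Arrays of equal replicate number deviated alike from their group means (correlations of 0.281, 0.320 and 0.312), so the numbered pairs were also set against each other. The pairing was drawn from these same arrays, so results with it are a description. For the brightest Bcl2l1 probe the C3a array was above the control of the same number by 0.40, 0.32 and 0.74. With the replicate number as a block, 3 of the 17 tested member probes instead of 1 fell below the unadjusted threshold. These are 3 of 17 beside 13.6% of all probes under the same block. They were the brightest Bcl2l1 probe (limma adjusted p = 0.233), A_64_P054730 of the same gene (limma adjusted p = 0.345) and the dimmer Bnip3 probe (limma adjusted p = 0.271). A_64_P054730, too, was well above background on 2 of 3 controls and 3 of 3 C3a arrays, so it entered the test through the group where it was higher. The block raised the count over the whole array too, from 780 higher and 587 lower probes to 1815 and 1371, and 0 member probes passed the adjusted threshold.

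Bcl2, the founding survival gene, read -1.37, -1.31 and -1.11 on the controls and -1.25, -1.26 and -0.95 with C3a. Replicate 3 was the highest in both groups and the groups overlapped. The mean was -1.26 ± 0.14 in the controls and -1.15 ± 0.17 with C3a (SD, n = 3 each), a difference of 0.11 (SE 0.13, limma adjusted p = 0.804). It was 0.011 without C3a replicate 3, 0.055 without control replicate 1 and 0.19 without control replicate 3.

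Bcl2l2, which encodes Bcl-w, read 0.71, 0.87 and 0.79 on the controls and 0.83, 0.82 and 0.89 with C3a. The C3a arrays fell inside the range of the controls except for replicate 3, and the difference was 0.058 (SE 0.092, limma adjusted p = 0.855). Its second, dimmer probe gave -0.027.

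Mcl1, a survival protein with a short life that heart muscle depends on, read 2.75, 2.61 and 2.61 on the controls and 2.75, 2.77 and 2.66 with C3a. Control replicate 1 lay among the C3a arrays, and the difference was 0.074 (SE 0.095, limma adjusted p = 0.822). Its second probe pointed the other way at -0.073, with an interval of -0.37 to 0.23.

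Both effectors were strongly detected on every array. Bax read 5.32, 5.06 and 5.30 on the controls and 5.45, 5.36 and 5.24 with C3a. Control replicate 2 was the lowest array, the groups overlapped, and the difference was 0.12 (SE 0.11, limma adjusted p = 0.768), with 0.11 from the second Bax probe. Without control replicate 2 the values were 0.037 and -0.0021. Bak1 read 1.93, 1.43 and 1.79 on the controls and 2.06, 1.86 and 1.84 with C3a. It had the largest difference after Bcl2l1, 0.20 (SE 0.15, 95% confidence interval -0.15 to 0.56, limma adjusted p = 0.746), and again control replicate 2 was the lowest array. Without that array the Bak1 difference was 0.059.

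Among the BH3-only members, Bad, which growth factor kinases switch off by phosphorylation, read 2.63, 2.16 and 2.53 on the controls and 2.72, 2.52 and 2.51 with C3a. Control replicate 2 was the lowest array here too, and the difference of 0.14 (SE 0.15, limma adjusted p = 0.780) was 0.0024 without it. Control replicate 2 also had the lowest summed cardiomyocyte marker signal, 3540 against 4299 and 4553 on the other controls. Its fibroblast (90.1), endothelial (33.1), smooth muscle (8.11) and macrophage (5.66) marker sums were the lowest of the controls too. Among single cardiomyocyte markers, Actc1, Tnnt2, Tnni3, Myh6 and Myl2 were lowest on that control, while Actn2 and Ryr2 were highest. The part of cell composition in the Bax, Bak1 and Bad values was not tested. The second Bad probe, A_44_P199624, pointed the other way, with -0.41, -0.63 and -0.58 on the controls and -0.64, -0.72 and -0.69 with C3a. Its groups did not overlap, yet the difference of -0.14 gave an unadjusted p of 0.208 in limma and an exact permutation p of 0.1. Within arrays the brighter minus the second Bad probe was 3.05, 2.78 and 3.11 in the controls and 3.36, 3.24 and 3.19 with C3a. That was a shift of 0.28 without overlap (exact permutation p = 0.1, adjusted 0.4).

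Bcl2l11, which encodes Bim, was the most level member. It read 2.04, 2.18 and 2.01 on the controls and 2.02, 2.14 and 2.02 with C3a, and replicate 2 was the highest in both groups. The difference was -0.015 (SE 0.097, 95% confidence interval -0.24 to 0.21, limma adjusted p = 0.968), and the second probe gave -0.018.

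Bid, the member that caspase cleavage turns into a mitochondrial death signal, was at the edge of detection. It read -2.92, -4.16 and -4.51 on the controls and -4.77, -4.27 and -4.40 with C3a, and it was well above background on control replicate 2 only. It was therefore not tested. For each C3a array the higher of Bid's signal and the array's lowest signal well above background was taken. The control mean lay 1.37-fold above the mean of these. That is no lower bound for Bid, which on C3a replicate 2 was not well above background though it exceeded the array's lowest such signal, -4.70. The value also rests on control replicate 1, where Bid itself was not well above background. Without that array the control mean lay 0.019 below the C3a value so taken (-0.019), and no fold can be given.

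Bnip3 read 4.78, 4.73 and 4.74 on the controls and 4.87, 4.74 and 4.59 with C3a with its brightest probe. The controls lay together inside the range of the C3a arrays, and the difference was -0.021 (SE 0.10, limma adjusted p = 0.959). The dimmer probe, A_44_P1370838, read 2.68, 3.35 and 2.51 on the controls and 2.40, 2.52 and 2.18 with C3a. Each C3a array was below the control of its number, by -0.28, -0.83 and -0.33, but C3a replicate 2 overlapped the controls. The difference was -0.48 (SE 0.22, upper bound of the 95% confidence interval 0.051, limma unadjusted p = 0.0700 and adjusted p = 0.746), and without control replicate 2 it was -0.22. Within arrays the brighter minus the dimmer probe was 2.10, 1.38 and 2.23 in the controls and 2.46, 2.22 and 2.41 with C3a, a shift of 0.46 (exact permutation p = 0.2, adjusted 0.4). Leaving control replicate 2 aside, those values were 2.10 and 2.23 against 2.22 to 2.46, so the remaining groups still overlapped.

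**Figure D3:**
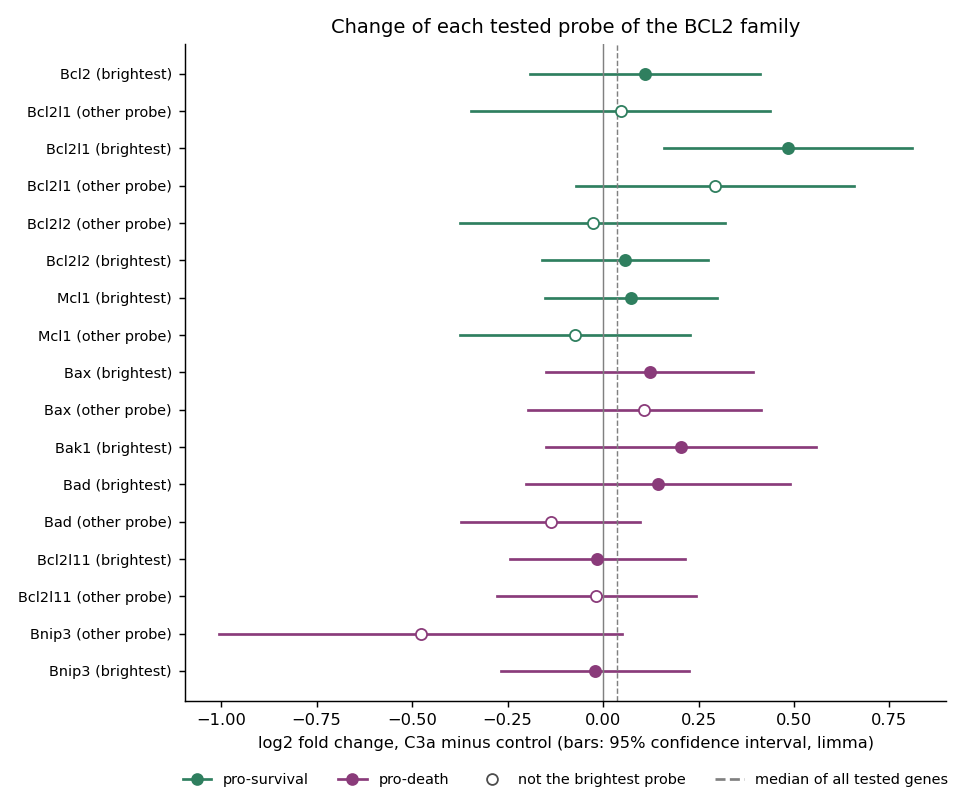
Log2 fold change (C3a minus control) of the 17 tested member probes with the 95% confidence interval from limma, with filled points for the brightest probe of a gene, open points for its other probes, green for pro-survival and purple for pro-death members, and a dashed line at the median of all tested genes (0.036). The interval of the brightest Bcl2l1 probe alone stays off 0.

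The pro-survival side did not separate from the pro-death side. The median change was 0.092 over the 4 survival members, 0.074 over the 3 without Bcl2l1, and 0.12 over the 5 tested death members, beside 0.036 over all tested genes. The difference of the 2 medians was -0.030, and it is a description with no test. Centred on each gene's mean over the arrays, the median survival minus the median death signal was -0.18, 0.14 and -0.055 on the controls and -0.12, -0.031 and 0.21 on the C3a arrays. The groups overlapped, and the replicates within a group spread by 0.17 (SD), more than the difference between the sides.

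In the rest of the cell death machinery no gene passed the adjusted threshold either. Of 45 further genes, 43 had a probe and 39 were tested, with a smallest limma adjusted p of 0.746. At an unadjusted p of 0.05, 0 genes were higher and 1 was lower, beside 2.89% and 2.46% of all tested genes. Their median change was 0.067, with 28 above 0 and 11 below, beside 0.036 and 60.5% above 0 over all tested genes. The 9 tested among the other family members had a median of 0.17 and ran from -0.87 for Bcl2l10 to 0.43 for Bmf. Bmf, Hrk (0.34) and Bcl2a1 (0.31) were well above background on 2 of 3 controls and 3 of 3 C3a arrays. They entered the test through the group where they were higher, so this median is a description. Over the whole list, genes that entered through the C3a group alone lay on both sides of 0. Bcl2l10 read -1.25, -4.42 and -4.11 on the controls and -4.17, -4.52 and -3.69 with C3a. It was well above background on 3 of 3 controls and 1 of 3 C3a arrays, so it entered the test through the controls, where it was higher. Its value came from control replicate 1, the array with the raised background, where the probe was still well above background. Without that array the sign turned to 0.14. The 12 genes downstream of the mitochondrion, which include cytochrome c, Apaf1 and the executioner caspases, had a median of 0.040. The 4 caspase inhibitors had a median of -0.028, the 7 tested death receptors and adaptors 0.055, the 3 outer membrane pores 0.033 and the 4 mitophagy partners -0.016.

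Fundc1, a receptor for mitophagy in the outer membrane, was the gene of this list below an unadjusted p of 0.05. It read -2.07, -2.44 and -2.80 on the controls and -3.13, -3.01 and -2.90 with C3a. All C3a arrays lay below all controls, and the difference was -0.58 (SE 0.19, 95% confidence interval -1.02 to -0.14, limma unadjusted p = 0.0168 and adjusted p = 0.746, exact permutation p = 0.1). The probe was well above background on 2 of 3 controls and 3 of 3 C3a arrays, and without control replicate 1, the array with the raised background, the difference was -0.39. Of 18 alternatives in which it was tested, Fundc1 fell below the unadjusted threshold in 14, and its difference ran from -0.90 to -0.12. With the replicate block, 3 of the 39 tested genes of the list instead of 1 fell below that threshold, beside 11.8% of all tested genes under the same block. Bmf, a BH3-only gene, stood at 0.43 (limma adjusted p = 0.284), Xiap, the direct inhibitor of caspases, at 0.23 (limma adjusted p = 0.362), and Fundc1 was the last of them (limma adjusted p = 0.307). Bmf was well above background on 2 of 3 controls and 3 of 3 C3a arrays, so it entered the test through the group where it was higher, and with each array left out its difference ran from 0.19 to 0.69.

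The genes whose signals were most like those of Bcl2l1 over the 6 arrays were Foxp3, Birc6 and Ucn2, out of 10389 genes compared by the root mean square difference of centred log2 signals. That difference was 0.074 for Foxp3, 0.079 for Birc6 and 0.094 for Ucn2, and their C3a minus control differences were 0.50, 0.34 and 0.38. Foxp3 and Ucn2, like Bcl2l1, were well above background on 2 of 3 controls, and Birc6, of the family of inhibitors of apoptosis proteins, on all arrays. These genes were picked for their likeness, so the values are a description.

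Markers of other cell types did not pass the threshold, and their part in the values above was not tested. The summed relative signal of 6 fibroblast markers was 90.1 to 103.8 in the controls and 90.2 to 105.8 with C3a, that of 5 endothelial markers 33.1 to 45.9 and 42.2 to 53.4, and that of 3 smooth muscle markers 8.11 to 10.6 and 9.09 to 12.1. The macrophage markers, 3 of 5 tested, summed to 5.66 to 7.10 and 5.51 to 6.05. Of all these markers 0 fell below an unadjusted p of 0.05 in limma. In such cultures fewer cells of a type and less RNA per cell cannot be told apart.

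**Figure D4:**
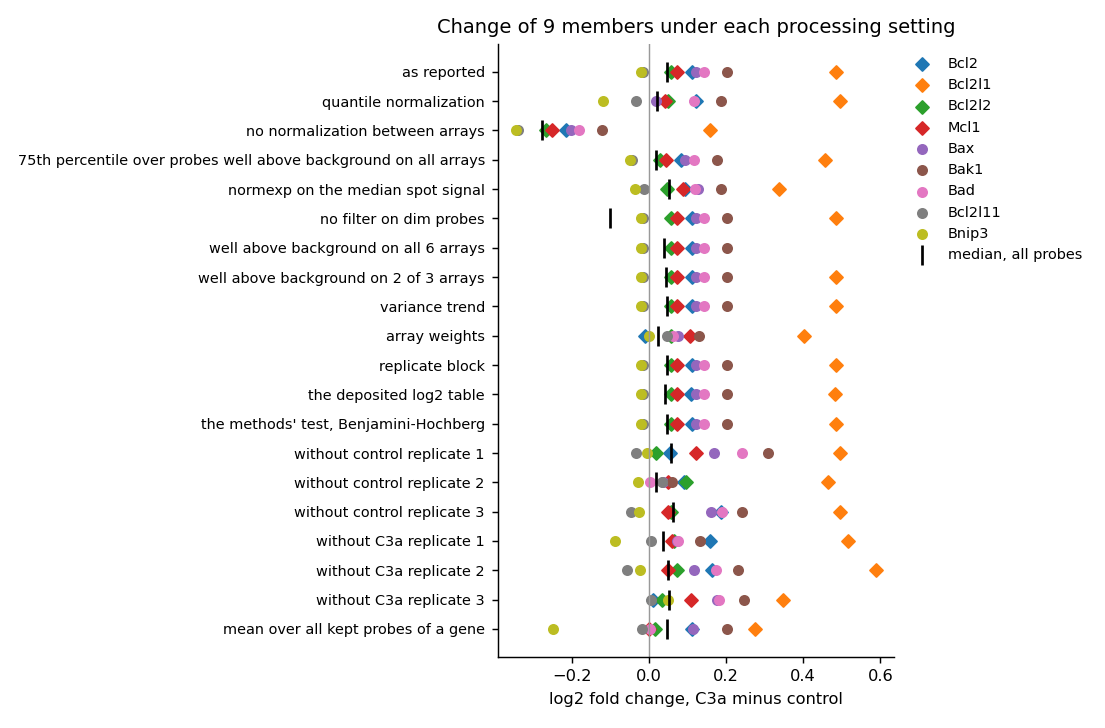
Log2 fold change (C3a minus control) of the 9 tested members, as reported and under each of 19 processing alternatives, with diamonds for pro-survival and circles for pro-death members and a bar at the median of all probes. Bcl2l1 is the highest member in each row where it was tested, at 0.16 to 0.59, and without normalization all members shift down with the median of all probes.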

How the data were processed

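Gene expression was measured on 6 one-colour Agilent SurePrint G3 Rat arrays, 3 from control and 3 from C3a cultures. The authors deposited spot intensities written by Feature Extraction 11.5.1.1, corrected for background and not normalized between arrays, and a log2 table of 36638 probes that matched log2 intensity scaled to each array's 75th percentile. Of 62976 spots an array, 4259 control spots and outlier spots were left out, and spots of a probe were averaged. Kept were 23438 probes well above background on 3 arrays of either group. The rat gene table named 21109 probes (46.3%). Groups were compared with limma 3.58.1 (lmFit, eBayes, two-sided) in R 4.3.3, with Benjamini-Hochberg adjustment over kept probes, and with exact permutation tests. The limma step was tested on simulated data. Deviations from the group mean correlated at 0.281, 0.320 and 0.312 between arrays of the same replicate number and at -0.255 to -0.0932 otherwise; the pairing comes from these values. The members, gene lists and rule for named genes (all members, list genes below an unadjusted p of 0.05, the 3 genes most like Bcl2l1) were chosen with earlier results of these data known. Precision is limited by 3 arrays a group. Alternatives varied the normalization, background correction, filter, variance model, block, source table, test, arrays and probe choice. Normexp used the median spot signal. The mouse arrays of the study were not analysed here. Figures were drawn with matplotlib 3.10.9.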

Additional observations from a re-analysis of the deposited data

How the results depend on the processing

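Under 19 alternatives no member passed an adjusted p of 0.05, and the smallest adjusted p of a member was 0.233 in limma, for Bcl2l1 with the replicate block. Bcl2l1 was tested in 18 of them, with differences of 0.16 to 0.59, and fell below an unadjusted p of 0.05 in 16. The count of 1 member at that threshold became 0 without normalization between arrays (Bcl2l1 at 0.16), under the filter that asked for detection on all 6 arrays, where Bcl2l1 was not tested, and with the mean over all kept probes. The count of 1 gene in the wider list became 3 without normalization, 2 with the percentile taken over always detected probes, 0 with normexp, 3 with the replicate block and 2 with the methods' test, and ran from 0 to 4 with each array left out. The gene called was not always Fundc1, since the methods' test called Bnip3l and Vdac1, array weights called Fadd, and the filter on all 6 arrays called Vdac1, each without Fundc1.

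Without normalization, where the median of all probes lay at -0.28, the sign turned for Bcl2 (-0.21), Bcl2l2 (-0.27), Mcl1 (-0.25), Bax (-0.20), Bak1 (-0.12) and Bad (-0.18). With array weights it turned for Bcl2 (-0.011), Bcl2l11 (0.046) and Bnip3 (0.00089). With each array left out, Bcl2l11 ran from -0.057 to 0.034 and Bnip3 from -0.089 to 0.051. The cause was not tested. With each array left out, Bcl2 ran from 0.011 to 0.19, Bcl2l2 from 0.019 to 0.096, Mcl1 from 0.049 to 0.12, Bax from 0.037 to 0.18, Bak1 from 0.059 to 0.31 and Bad from 0.0024 to 0.24. The difference between survival and death medians ran from -0.10 to 0.066, within the replicate spread. At the brightest probe of each gene the block changed no call among the members, and the calls it added were at other probes.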
